A study of Mus musculus with 10 samples.

Results

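The 10 genes described here encode transcription factors that lay out the lung: the T-box factors Tbx2, Tbx3, Tbx4 and Tbx5 and the forkhead factor Foxf1, grouped as mesenchymal, and Nkx2-1, Foxa1, Foxa2, Gata6 and Sox9, grouped as epithelial. They were taken by symbol from the 53465 genes counted in each library, and each symbol matched 1 identifier. The rule reads no measured value, but the set was drawn up with earlier results of these data known. The libraries come from whole lung tissue of BALB/c mice, 5 labelled as controls and described as untreated, and 5 given the cytokine IL-33 into the nose at 1 µg in 35 µL on each of 5 days, with lungs taken 24 hours after the last dose. Sex, age and any vehicle given to the controls are not stated in the sources used here. The comparison asks how repeated IL-33 changed the lung transcriptome.

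During lung formation NKX2-1 marks the lung field of the foregut endoderm, and FOXA1, FOXA2 and GATA6 act beside it in the epithelium, where they also drive surfactant and secretory genes in the adult. SOX9 marks the growing distal tips of the embryonic airway tree, and it is also the main factor of cartilage. TBX4 and TBX5, with TBX2 and TBX3, act in the mesenchyme around the buds, where they sustain the FGF10 signal that drives branching. FOXF1 answers Hedgehog signals from the epithelium in that mesenchyme, and in the adult lung it is a factor of capillary endothelium. Several of these genes are therefore not limited to 1 compartment, and in RNA of whole tissue fewer cells of a type and less RNA per cell cannot be told apart.

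Depth ran from 8935159 to 13767118 gene reads in controls and from 7805175 to 13178798 with IL-33. Reads that aligned to several places, which were not counted, made up 15.0% to 16.2% of records in controls and 19.97% to 22.8% with IL-33, and their part in the results was not tested. Lung markers were abundant in both groups: the alveolar type 2 cell gene Sftpc stood at 10610 ± 907 CPM (reads scaled to a common library size, mean ± SD, n = 5) in controls and at 10222 ± 787 CPM with IL-33. Fold changes are IL-33 over control on the log2 scale with the SE. Calls use an adjusted p of 0.05 from edgeR's quasi-likelihood fit to the 15695 genes tested.

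RefSeq start-site windows (GRCm38.p6, 250 bases before to 50 after the start) were found for 4 of the 10 genes. The windows of the paralogs Foxa1 and Foxa2 are printed because the ratio of this pair within a library differed between the groups, as given further on. Capitals mark matches to any of 7 short motifs, searched on both strands. The forkhead motif was searched as TGTTTAC. For NKX2-1 the letters were CAAGTG, and for T-box factors GGTGTG. The GATA motif was read as AGATAA. A spaced STAT6 palindrome, the GLI motif GACCACCC and, for the TATA box, TATAAA completed the set. The Foxa1 window is at chr12:57546062-57546361 and the Foxa2 window, of the outermost of 3 starts, at chr2:148046920-148047219, both on the minus strand and written 5′ to 3′. The Foxa1 window lies inside the annotated gene, whose 5′ end is at 57546916, while the Foxa2 window spans the 5′ end of its gene at 148046969.
Foxa1: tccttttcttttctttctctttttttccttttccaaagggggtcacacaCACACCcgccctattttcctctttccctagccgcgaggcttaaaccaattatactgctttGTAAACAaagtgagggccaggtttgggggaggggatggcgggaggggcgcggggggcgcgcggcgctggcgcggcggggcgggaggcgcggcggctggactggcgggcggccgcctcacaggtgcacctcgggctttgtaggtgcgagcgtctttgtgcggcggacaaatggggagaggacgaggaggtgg
Foxa2: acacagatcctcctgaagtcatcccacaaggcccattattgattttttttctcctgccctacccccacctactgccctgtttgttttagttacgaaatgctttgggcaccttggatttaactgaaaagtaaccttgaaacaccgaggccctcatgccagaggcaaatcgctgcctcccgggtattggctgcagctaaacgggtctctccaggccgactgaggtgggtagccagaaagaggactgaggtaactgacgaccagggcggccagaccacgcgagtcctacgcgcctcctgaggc
The Foxa1 window held a forkhead match at bases 110 to 116 and a T-box match at bases 50 to 55, both on the reverse strand and not overlapping. Of 32851 windows of this length, 3.65% held the forkhead motif and 19% the T-box motif. The printed Foxa2 window held none of the 7, and of the other Foxa2 starts 1 window, at chr2:148045415-148045714, held a GATA match at bases 68 to 73 and a TATA box match at bases 43 to 48. The GC content was 62.3% for Foxa1 and 54.3% for Foxa2, against a median of 52.7% over all windows. A match is a string of letters and not a bound site.

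In the GRCm38 annotation Tbx2 (ENSMUSG00000000093, chromosome 11, 85832551 to 85841948) and Tbx4 (ENSMUSG00000000094, 85886422 to 85916097) lie 44.5 kb apart, and Tbx3 (ENSMUSG00000018604, chromosome 5, 119670669 to 119684724) and Tbx5 (ENSMUSG00000018263, 119832668 to 119885219) lie 148 kb apart. Foxf1 (ENSMUSG00000042812, chromosome 8, 121084386 to 121088144) starts 1275 bases from the long noncoding RNA gene Fendrr. Nkx2-1 (ENSMUSG00000001496, chromosome 12, 56531958 to 56536908) and Foxa1 (ENSMUSG00000035451, 57540628 to 57546916) share a chromosome, with Foxa2 (ENSMUSG00000037025) on chromosome 2, 148042877 to 148046969, Gata6 (ENSMUSG00000005836) on chromosome 18, 11052064 to 11085635, and Sox9 (ENSMUSG00000000567) on chromosome 11, 112782224 to 112787760. These spans run from the first to the last exon. At most 1.38% of a member's 75-base windows (Nkx2-1) occur in another gene. Exons of Tbx3, Foxf1 and Gata6 overlap a gene on the other strand by 115, 98 and 93 bases, so few reads could belong to those partners.

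Of the 10 factors, 9 passed an adjusted p of 0.05, 8 lower and 1 higher with IL-33. Over all genes tested 69.9% passed, 34.8% lower and 35.1% higher. Among protein-coding genes alone 36.7% were called lower. The 5 control and 5 IL-33 values did not overlap for 9 of the 10, and over all genes this held for 56.5%, 27.4% lower and 29.1% higher. Sox9 was the factor that rose, and Foxa2 was the one that did not pass. The 3 factors that fell at least 2-fold were Tbx3, Tbx4 and Foxf1, and Foxa1, at 1.93-fold lower, lay just short of it. Foxa1 passed 2-fold in the fit corrected for length and GC (log2 -1.10) and without control 1 (-1.01) or IL-33 library 4 (-1.10). Over all genes 8.79% were called at least 2-fold lower and 5.29% lower by at least as much as Tbx3.

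**Figure D1:**
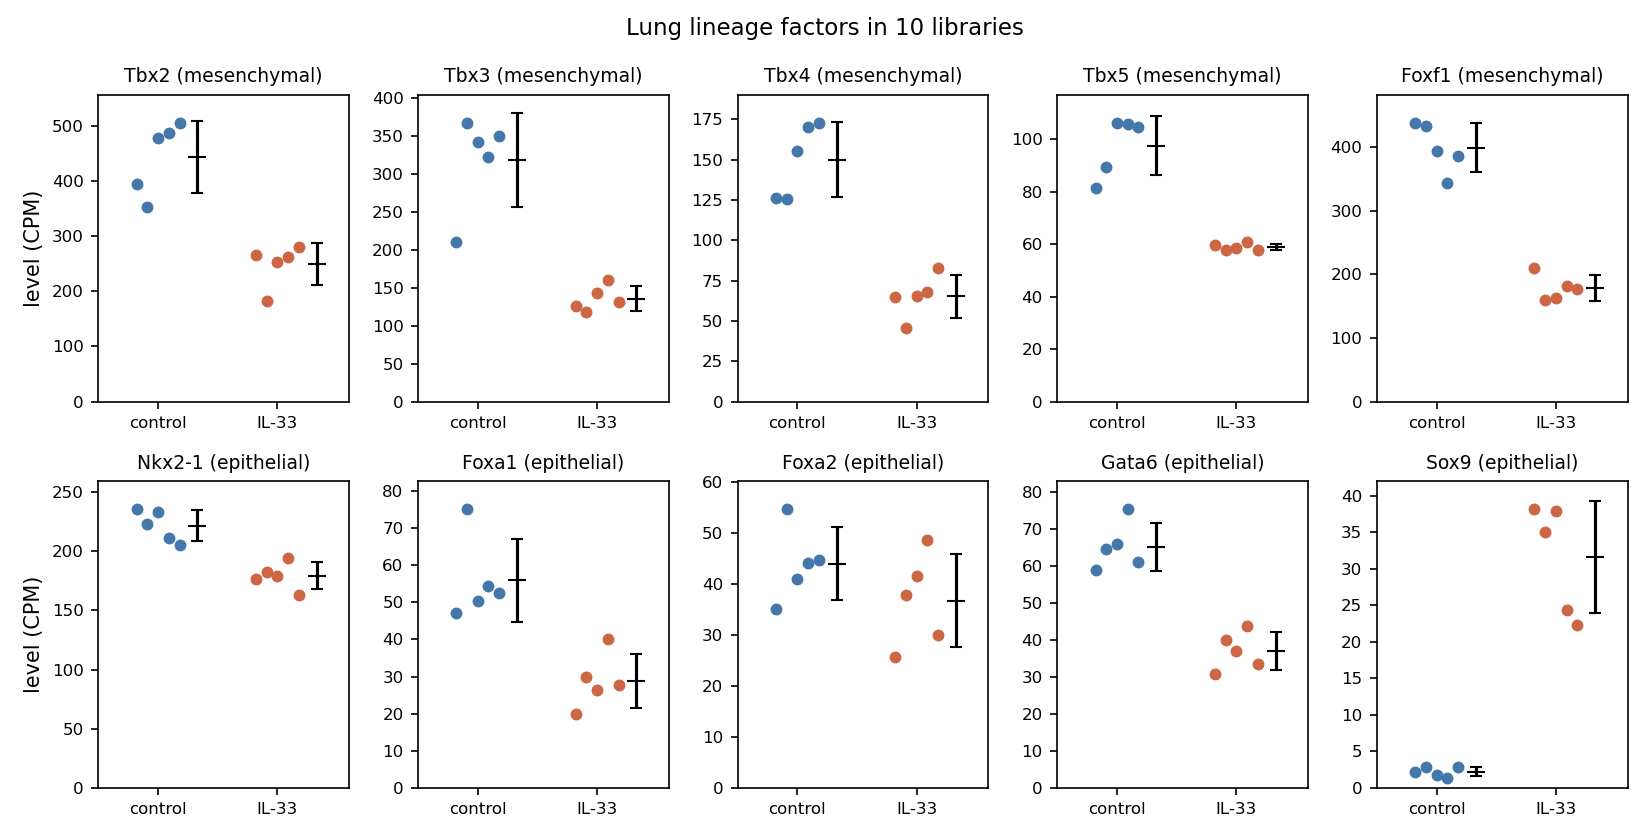
Level in CPM (vertical axes, linear and starting at 0) of each factor in the 5 control (blue) and 5 IL-33 (orange) libraries, 1 point per library, with the mean and SD in black. The groups are apart in every panel except Foxa2, and Sox9 moves opposite to the rest.

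All 5 mesenchymal factors fell, and in none did the groups overlap. Foxf1 was at 438, 434, 394, 344 and 385 CPM in controls 1 to 5, and at 210.0, 160.1, 162, 182 and 176 CPM in IL-33 libraries 1 to 5. The lowest control stood well above the highest IL-33 library. Its log2 fold change was -1.16 ± 0.09, or 44.7% of the control level (adjusted p = 2.19e-07, edgeR's quasi-likelihood test).

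Tbx3, a T-box repressor, had the largest fall of the 10 in the main fit, with a log2 fold change of -1.23 ± 0.16 (adjusted p = 4.19e-06 by edgeR). Tbx4 (-1.19) and Foxf1 (-1.16) lay close to it, and Foxf1 fell further (-1.52) in the fit corrected for length and GC. Controls held 211, 367, 343, 322 and 350 CPM and IL-33 libraries 126, 119, 143, 161 and 132 CPM. Control 1 stood apart from the other controls, and it was still above all IL-33 libraries. Without control 1 the Tbx3 value was -1.35.

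Tbx2, the paralog of Tbx3 and also a repressor, fell by 0.83 ± 0.15 on the log2 scale (adjusted p = 6.0e-05 by edgeR). Its controls held 395, 354, 478, 486 and 505 CPM and its IL-33 libraries 265, 183, 254, 261 and 281 CPM. The second IL-33 library was the lowest.

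Tbx4, an activator needed for FGF10 signalling in the lung bud, fell by 1.19 ± 0.17 (log2, adjusted p = 7.29e-06 by edgeR). It went from 126, 125, 155, 170.4 and 173 CPM in controls to 65.1, 45.5, 65.5, 68.1 and 82.7 CPM with IL-33. Tbx5, its paralog, which also serves the heart and the forelimb, fell by 0.72 ± 0.08 (log2, adjusted p = 3.23e-06 by edgeR). Tbx5 went from 81.7, 89.5, 106, 106 and 105 CPM to 59.8, 57.8, 58.8, 60.7 and 58.0 CPM. The 5 IL-33 values of Tbx5 lay closer together than those of any other factor, with a coefficient of variation of 2.09% against 11.6% in controls.

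IL-33 library 2 was the lowest of its group in all 5 mesenchymal factors. The mesenchymal calls and directions were the same when any single library was left out.

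**Figure D2:**
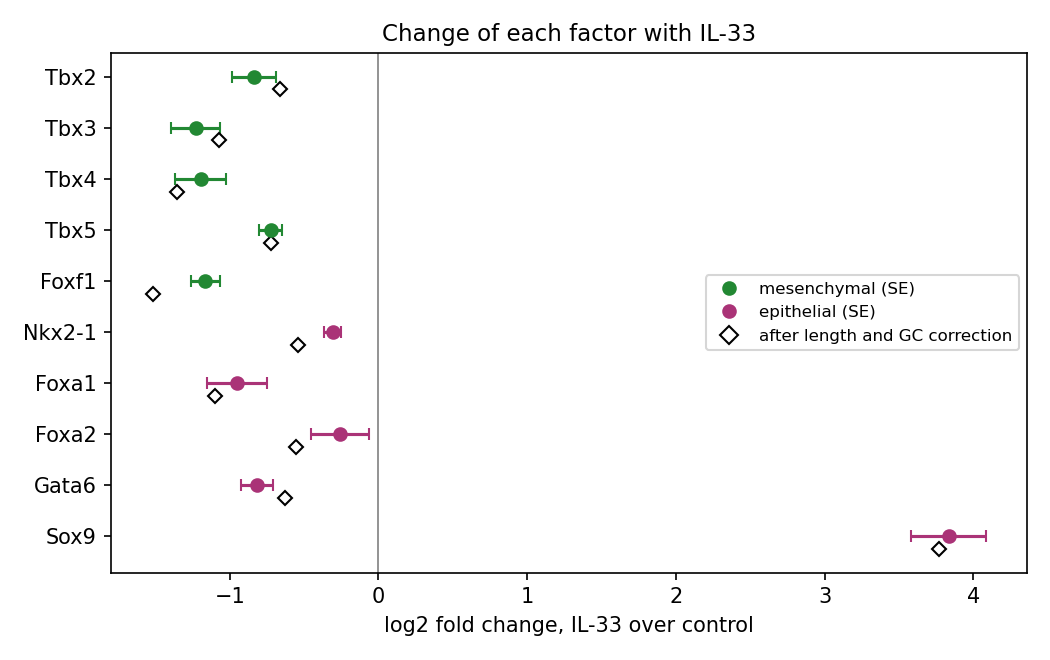
Log2 fold change of each factor, IL-33 over control (horizontal axis), with the SE over 5 and 5 libraries, mesenchymal factors in green and epithelial in purple. Open diamonds give the value once trends with exon length and GC were taken out of each library, with Foxf1 at -1.52, Foxa2 at -0.56 and Sox9 at 3.77.

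The epithelial factors were split: 3 fell, 1 rose and 1 did not pass. Nkx2-1, the identity factor of lung epithelium, went from 236, 223, 233, 211 and 205.0 CPM in controls to 177, 183, 179, 195 and 163 CPM with IL-33. The groups did not overlap, but the fall was small at a log2 fold change of -0.31 ± 0.06, or 80.9% of control (adjusted p = 0.00114 by edgeR). It did not pass a test against a 1.5-fold change (adjusted p = 1, edgeR's glmTreat).

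Foxa1, a forkhead factor that opens chromatin, fell by 0.95 ± 0.20 (log2, adjusted p = 0.000232 by edgeR). It held 47.2, 75.1, 50.3, 54.3 and 52.6 CPM in controls, where control 2 stood apart, and 19.8, 29.9, 26.3, 40.1 and 27.9 CPM with IL-33. Foxa2, its paralog, which restrains goblet cell differentiation in the airway, held 35.1, 54.7, 41.1, 44.2 and 44.8 CPM in controls and 25.7, 37.9, 41.6, 48.6 and 30.0 CPM with IL-33. Those ranges overlapped, and the log2 fold change of -0.26 ± 0.19 did not pass (adjusted p = 0.172 by edgeR). Foxa2 passed in the corrected fit for length and GC (-0.56, adjusted p = 0.00646 by edgeR) and without IL-33 library 4 (-0.38, adjusted p = 0.0409).

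Gata6, a zinc finger factor of alveolar epithelium that smooth muscle and endothelium also use, fell by 0.81 ± 0.11 (log2, adjusted p = 9.72e-06 by edgeR). Controls held 58.9, 64.5, 65.9, 75.3 and 61.0 CPM and IL-33 libraries 30.9, 40.1, 37.0, 43.6 and 33.4 CPM, with no overlap. IL-33 library 4 was the highest of its group in Nkx2-1, Foxa1, Foxa2 and Gata6 alike.

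Sox9 moved the other way and further than any other factor. Controls held 2.12, 2.85, 1.81, 1.403 and 2.85 CPM, from 30, 26, 16, 16 and 30 reads. IL-33 libraries held 38.2, 35.1, 38.0, 24.4 and 22.3 CPM, from 386, 305, 292, 312 and 300 reads. The log2 fold change was 3.83 ± 0.25, or 14.3-fold (adjusted p = 1.77e-08 by edgeR), and it stayed between 3.69 and 3.93 when single libraries were left out. Of all genes tested, 1.12% were called higher by at least as much.

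Airway cartilage, another known site of Sox9, was checked with 9 marker genes. None was at 0 in all libraries, 6 were at 0 in at least 1 control and 3 in at least 1 IL-33 library. Their summed level was 1.05 to 20.1 CPM in controls and 3.36 to 15.2 CPM with IL-33, overlapping. Of the 4 tested, Comp was called higher (adjusted p = 0.0421 by edgeR) and Col2a1, Acan and Hapln1 did not pass. The Comp call was lost without any 1 of 6 libraries, controls 1, 3 and 4 and IL-33 libraries 2, 3 and 5 (adjusted p of 0.071 to 0.0953 by edgeR). Among controls, Sox9 was highest in libraries 2 and 5, where cartilage markers summed to 20.1 and 14.7 CPM, and lowest in library 4, where they summed to 1.05 CPM. Among IL-33 libraries, Sox9 was highest in library 1, with a cartilage sum of 3.36 CPM, and lowest in library 5, with 15.2 CPM. The part of cartilage in the Sox9 result was not tested.

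Levels can be compared between genes only per length, here as CPM per kilobase of exon. In controls the order ran from Foxf1 (165 ± 16) over Tbx2 (122 ± 18.1), Nkx2-1 (78.0 ± 4.72), Tbx3 (48.1 ± 9.42), Tbx4 (44.1 ± 6.79), Tbx5 (20.9 ± 2.42), Foxa2 (18.6 ± 3.01), Foxa1 (16.8 ± 3.33) and Gata6 (10.003 ± 0.98) to Sox9 (0.53 ± 0.16). The ranges of Tbx3 and Tbx4, of Tbx5 and Foxa2, and of Foxa2 and Foxa1 overlapped. With IL-33, Foxf1 (73.8 ± 8.3), Tbx2 (68.6 ± 10.5) and Nkx2-1 (63.1 ± 3.98) had overlapping ranges at the top. Sox9 (7.64 ± 1.85) then overlapped with both Foxa1 (8.65 ± 2.21) and Gata6 (5.69 ± 0.78).

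Whether 2 factors changed by different amounts was tested with the log2 ratio of their levels within each library, by 2-sided exact permutation over the 252 regroupings of the libraries, adjusted over 4 pairs. Foxa1 over Foxa2 went from 0.34 ± 0.10 (SD) in controls to -0.35 ± 0.20 with IL-33, a change of -0.69 ± 0.10 (SE). Foxa1 was above Foxa2 in all 5 controls and below it in all 5 IL-33 libraries (exact permutation p = 0.00794, the smallest possible, adjusted p = 0.0159). This ratio compares levels in CPM without regard to length, so its change and not its sign carries the comparison.

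Foxf1 over Nkx2-1, the most abundant factor of each class per length, went from 0.84 ± 0.11 to -0.01 ± 0.19, a change of -0.86 ± 0.10 with no overlap (exact permutation p = 0.00794, adjusted p = 0.0159). Tbx4 over Tbx5 changed by -0.49 ± 0.14 (exact permutation p = 0.0159, adjusted p = 0.0212), with overlap from IL-33 library 5 at 0.51 beside the lowest control at 0.49. Tbx2 over Tbx3 changed by 0.37 ± 0.18 and did not pass (exact permutation p = 0.0635, adjusted p = 0.0635). It moved with single controls: it was 0.48 without control 1, where it passed (exact permutation, adjusted p = 0.0212), and 0.24 without control 2 (adjusted p = 0.127).

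**Figure D3:**
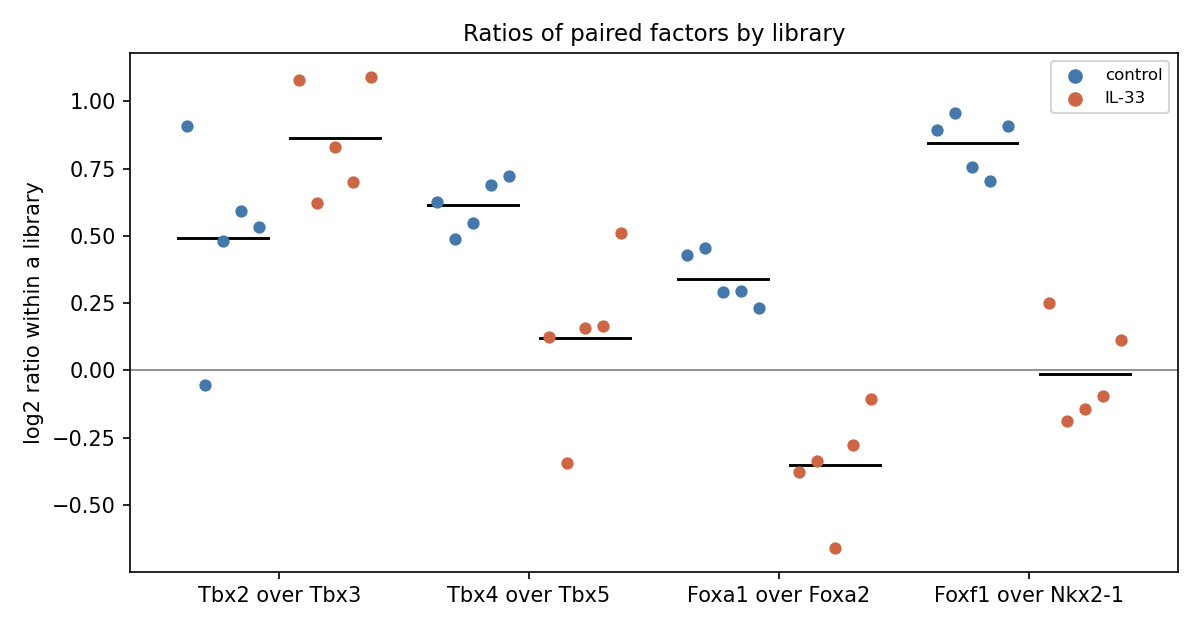
Log2 ratio of 2 factors within each library (vertical axis) for the 4 pairs, 1 point per library, controls in blue and IL-33 in orange, with group means as bars. The groups are apart for Foxa1 over Foxa2 and for Foxf1 over Nkx2-1, and overlap for both T-box pairs.

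As a description of the 2 classes, the mean log2(CPM + 0.1) was taken over each in every library. The 5 mesenchymal factors averaged 7.69 to 8.03 in controls and 6.62 to 6.98 with IL-33, a change of -1.03 with no overlap. The 5 epithelial factors averaged 5.12 to 5.48 and 5.33 to 5.72, a change of 0.28 with overlap. Sox9 decided that sign: the other 4 epithelial factors averaged 6.12 to 6.46 in controls and 5.36 to 6.0 with IL-33, a change of -0.59 with no overlap. The mesenchymal mean minus the epithelial mean fell by 1.31 with Sox9 and by 0.43 without it, and in the second case the groups overlapped (1.39 to 1.83 against 0.87 to 1.58).

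**Figure D4:**
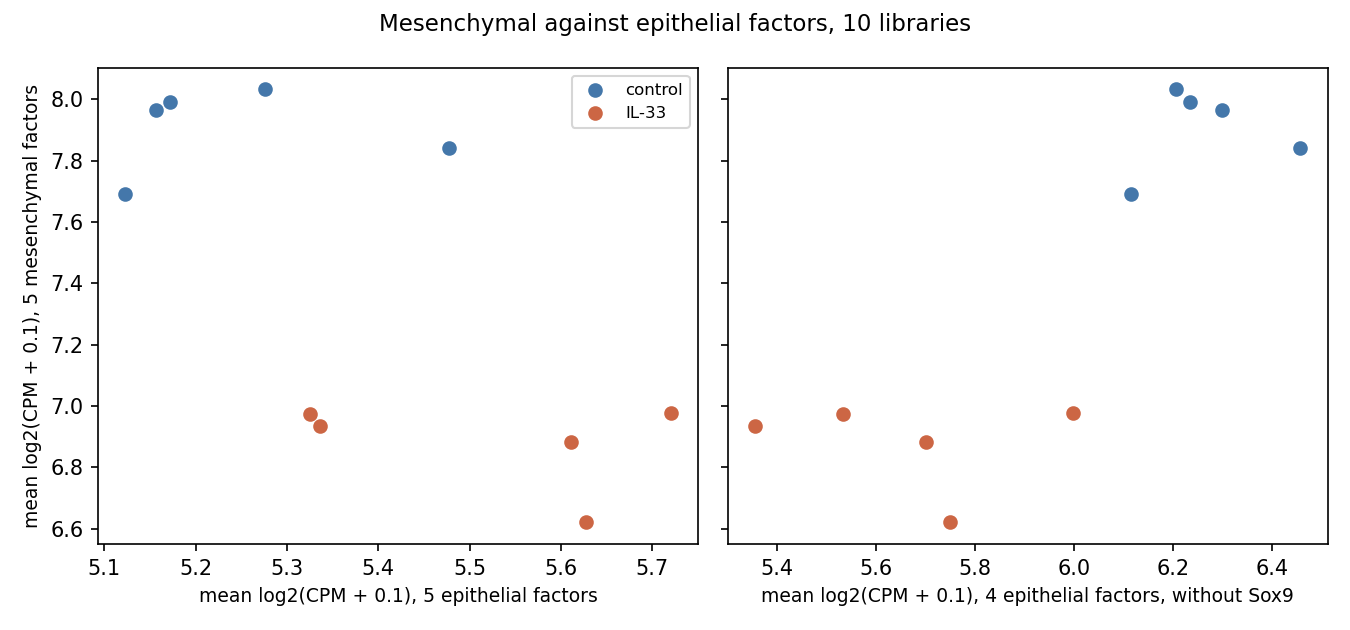
Mean log2(CPM + 0.1) of the 5 mesenchymal factors (vertical axis) against that of the epithelial factors (horizontal axis), 1 point per library, with Sox9 on the left and without it on the right. IL-33 libraries (orange) lie lower on the vertical axis in both, and move left of the controls (blue) only when Sox9 is left out.

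Marker genes of the cells that carry these factors also moved. Their counts stand beside 69.9% of all genes tested called, 34.8% lower and 35.1% higher. Of 9 pan-epithelial markers, 2 rose and 5 fell, with summed levels of 884 to 1034 CPM in controls and 762 to 937 CPM with IL-33. Of 10 endothelial markers 6 fell and none rose, and their sum went from 5290 to 5703 CPM down to 2815 to 3410 CPM. Of 10 fibroblast markers 3 rose, the collagen genes Col1a1, Col1a2 and Col3a1, and 6 fell, among them Pdgfra and Npnt, with overlapping sums of 4806 to 5810 and 5075 to 6649 CPM. Of 8 alveolar type 1 cell markers 7 fell, and their sum went from 5724 to 6217 CPM down to 2338 to 3030 CPM. All 10 leukocyte markers rose, from summed levels of 586 to 1019 CPM to 2156 to 2687 CPM. None of these markers was at 0 in any library. The part of these shifts in the falls above was not tested.

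The levels within a library can still be set against those sums, with no test. Per 1000 CPM of endothelial markers, Foxf1 stood at 61.8 to 82.0 CPM in controls and 53.9 to 61.6 CPM with IL-33, a ratio of means of 0.78 against 0.45 before scaling. All 4 T-box factors overlapped between the groups on that scale, with ratios of 0.75 (Tbx3), 0.76 (Tbx4), 0.99 (Tbx2) and 1.07 (Tbx5). These ratios depend on the markers summed, which moved unequally. Cdh5, Kdr and Tek stood at 33.1%, 34.1% and 36.2% of control, and Pecam1 and Tie1 at 65.5% and 71.9%. Of the 10 endothelial markers 4 did not pass, among them Cldn5 (log2 -0.01). Per 1000 CPM of markers of alveolar type 1 cells, which are epithelial, Foxf1 (0.95), Tbx3 (0.92), Tbx4 (0.93) and Tbx2 (1.2) overlapped, and Tbx5 was higher with IL-33 (1.31). Smooth muscle and pericyte markers had overlapping sums of 1180 to 1551 CPM in controls and 1288 to 1412 CPM with IL-33. Set against them, all 5 mesenchymal factors were lower without overlap, with ratios of 0.42 (Tbx3) to 0.59 (Tbx5). That sum joined rises and falls. Of its 8 markers 2 rose, among them Acta2 (log2 0.69), and 5 fell, led by Notch3 (-1.24) and Cspg4 (-1.05). Per 1000 CPM of fibroblast markers all 5 mesenchymal factors were lower without overlap, with ratios of 0.39 (Tbx3) to 0.56 (Tbx5). That sum includes the 3 collagen genes that rose. The markers in it that fell furthest, Pdgfra, Pdgfrb and Npnt, stood at 38.8%, 39.6% and 32.6% of control, near the 42.7% of Tbx3. Other markers in it fell less: Tcf21 stood at 72.4% of control, and Mfap4 had a log2 fold change of -0.18 and did not pass. Per 1000 CPM of pan-epithelial markers, Nkx2-1 (ratio 0.91) and Foxa2 (0.94) overlapped between the groups, and Foxa1 (0.58) and Gata6 (0.64) did not. Per 1000 CPM of alveolar type 1 markers, Foxa1 (1.11), Gata6 (1.24) and Foxa2 (1.81) overlapped, and Nkx2-1 was higher with IL-33 without overlap (1.75). Set against club and ciliated markers in the same way, Foxa1 (0.80), Gata6 (0.88) and Foxa2 (1.29) overlapped, and Nkx2-1 was again higher without overlap (1.25). With alveolar type 2 markers the values were close to those with pan-epithelial markers. Nkx2-1 (0.92) and Foxa2 (0.95) overlapped, and Foxa1 (0.59) and Gata6 (0.65) did not. The alveolar type 1 sum itself stood at 46.7% of control and the club and ciliated sum at 64.6%, against 87.95% for alveolar type 2. Sftpc, which did not pass, weighs most in the type 2 sum, while 6 of its 8 markers fell and 1 rose. Sftpb, Abca3 and Slc34a2 stood at 53.8%, 55.1% and 54.4% of control, and Lamp3 and Napsa at 73.3% and 77.3%. Foxa1 stood at 51.8% and Gata6 at 56.9%. Scgb1a1, at 17129 CPM in controls, made up most of the club and ciliated sum. The position of Nkx2-1, Foxa1, Foxa2 and Gata6 relative to epithelium thus varied with the markers used. Sox9 stood at 16.4 times its control mean per pan-epithelial markers and at 4.07 times per leukocyte markers, both without overlap. Sox9 per 1000 CPM of proliferation markers overlapped between the groups, at 31.3 to 67.9 CPM in controls and 41.1 to 59.0 CPM with IL-33 (ratio 1.07).

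Heart muscle, which uses Tbx5, Tbx3 and Gata6, lines the pulmonary veins of mice and may be sampled with the lung. Of its 9 tested markers 6 fell and none rose, beside 34.8% of all genes tested called lower and 35.1% higher. Summed levels were 564 to 2203 CPM in controls and 209 to 618 CPM with IL-33. In controls 1 to 5 the cardiac sums were 957, 2203, 1028, 564 and 1854 CPM, beside the 81.7, 89.5, 106, 106 and 105 CPM of Tbx5. In the same order Tbx3 held 211, 367, 343, 322 and 350 CPM, highest in controls 2 and 5 as the cardiac sums were. Gata6 held 58.9, 64.5, 65.9, 75.3 and 61.0 CPM, highest in control 4, where the cardiac sum was lowest. The part of heart muscle in the falls of Tbx5, Tbx3 and Gata6 was not tested.

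Other transcription factors of the lung mesenchyme were described by a list of 22 genes. Of these, 21 were tested, 8 fell and 1 rose, with a median log2 fold change of -0.01, beside -0.01 over all genes tested. Among all genes tested 34.8% were called lower and 35.1% higher. Heyl, a Notch target of mural cells, went from 69.3 ± 7.92 to 31.1 ± 4.81 CPM, and Zfpm2, a GATA cofactor, from 7.70 ± 2.14 to 3.45 ± 0.77 CPM. Foxf2, the paralog of Foxf1, fell by 0.83, and Tcf21, a fibroblast factor and the most abundant of the list per length, fell by 0.47. Wt1, of mesothelium, rose by 0.89, and Gli2, Gli3, Prrx1, Hoxa5 and Osr1 did not pass, with values between -0.20 and 0.21. In the fit corrected for length and GC 15 were called, against 9 here.

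Of 23 other epithelial factors, 11 fell and 8 rose, with a median of -0.34, beside 34.8% lower and 35.1% higher over all genes tested. The falls included Etv5, an FGF-driven factor of type 2 cells (-1.17), Hopx, of type 1 cells and the most abundant per length (-0.77), and Grhl2, which maintains epithelial junctions (-0.71). The rises were led by Foxa3, the third FOXA gene, which went from 0.28 ± 0.13 to 2.91 ± 1.05 CPM (log2 3.33 ± 0.33), and Spdef, the goblet cell factor, from 1.62 ± 1.00 to 9.16 ± 2.58 CPM (log2 2.52 ± 0.36). Trp63, of basal cells, rose by 2.13, Id2, a factor of the embryonic tips, by 1.28, and Sox2, of the proximal airway, by 0.54. All 10 leukocyte markers rose as well, and the part of leukocytes in the Id2 rise was not tested. Foxj1, of ciliated cells, had -0.04 and did not pass. The FOXA family thus held 1 fall, 1 rise and 1 gene that did not pass. The rise, of Foxa3, rests on few reads, 15 over all controls together and 152 over the IL-33 libraries.

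Signals that shape the lung buds fell in 14 of 22 tested genes and rose in 4, with a median of -0.57. The shares over all genes tested were 34.8% lower and 35.1% higher. In the FGF branch, downstream of the T-box factors, the ligand gene Fgf10 fell by 0.80, Fgf7 by 1.08, their receptor gene Fgfr2 by 0.99, and the feedback inhibitor Spry1, the most abundant of the list per length, from 146 ± 12 to 60.1 ± 8.62 CPM. The ligand gene Fgf9 rose by 1.08, and Spry4, another feedback inhibitor, had -0.13 and did not pass. In the Hedgehog branch, upstream of Foxf1, the ligand Shh rose by 0.38, while the transducer Smo fell by 0.94, the receptor Ptch1 by 0.43, the antagonist Hhip by 1.12 and the effector Gli1 by 0.71. Wnt2b, a mesenchymal ligand that induces Nkx2-1 in the embryo, had the largest fall (4.44 ± 0.97 to 0.91 ± 0.42 CPM), and Aldh1a2, which makes retinoic acid, the largest rise (26.5 ± 4.71 to 79.1 ± 8.49 CPM).

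Among 17 known targets of NKX2-1, FOXA or GATA6, 13 fell and 3 rose, with a median of -0.51. Over all genes tested these shares were 34.8% and 35.1%. Many of them also served as cell markers above. Sftpa1, Sftpb, Sftpc, Abca3, Slc34a2, Lamp3 and Napsa are on the alveolar type 2 list, and Scgb1a1, Scgb3a2, Aqp5 and Cdh1 on other epithelial lists. Scgb3a2, a club cell secretoglobin, went from 419 ± 106 to 51.1 ± 20.8 CPM, and Scgb1a1, the most abundant per length, fell by 0.51. The surfactant genes parted: Sftpb fell by 0.89, Sftpd rose by 1.11, Sftpa1 rose by 0.38 and Sftpc had -0.05 and did not pass. In the fit corrected for length and GC, Sftpc was called lower at -0.86 (adjusted p = 1.48e-05 by edgeR). Scgb3a1 passed at 1.31 but lost the call under DESeq2 (adjusted p = 0.0551), in the fit corrected for length and GC (0.24, adjusted p = 0.672 by edgeR) and without any 1 of 5 libraries, controls 1 and 3 and IL-33 libraries 2, 3 and 4 (adjusted p of 0.0605 to 0.0801).

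Of 12 known FOXF1 targets 10 fell and none rose, with a median of -0.59, beside 34.8% lower and 35.1% higher over all genes tested. Cdh5, endothelial cadherin and the most abundant per length, went from 1315 ± 96.9 to 436 ± 68.3 CPM, and Kdr, a VEGF receptor gene, from 690 ± 12.3 to 235 ± 43.5 CPM. Both of these, and Tek, Pecam1 and Tie1 of the same list, are also markers of endothelium, whose summed level fell as given above. Fendrr, the divergent partner of Foxf1, fell by 1.49, from 400 ± 28.7 to 143 ± 26.9 CPM (adjusted p = 2.9e-07 by edgeR). The other listed genes around Foxf1, Foxc2, Foxl1 and Mthfsd, had -0.10 to 0.11 and did not pass. Next to Tbx2 and Tbx4, Bcas3 fell by 0.33 and Brip1, a DNA repair helicase, rose by 2.25. These lists were read against the share of all genes called, 69.9%, and no list was tested as a set.

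**Figure D5:**
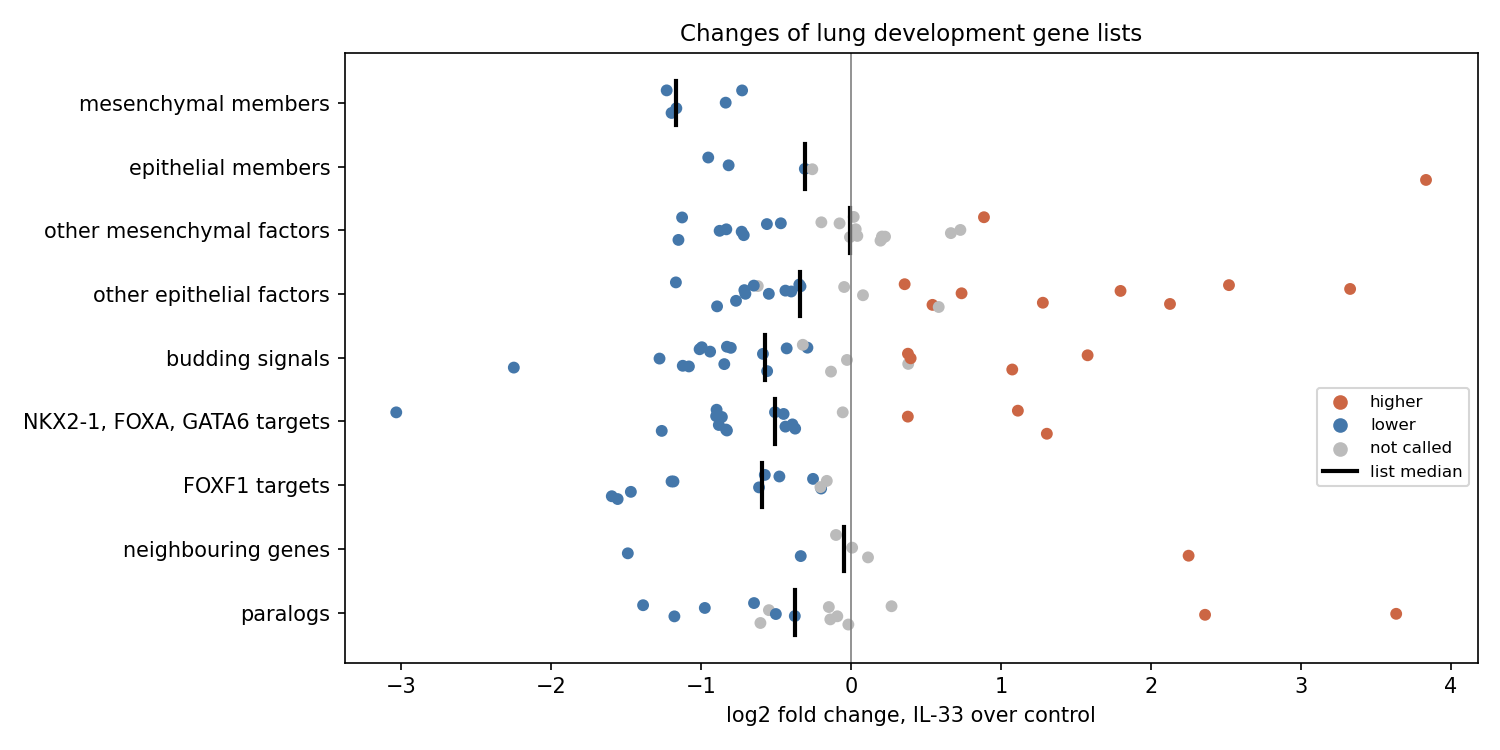
Log2 fold change, IL-33 over control (horizontal axis), of every tested gene in the 2 member classes and 7 related lists, 1 point per gene, coloured by call, with list medians as black bars. The mesenchymal members have the lowest median at -1.16, and other epithelial factors spread from -1.17 to 3.33.

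Profiles over the 10 libraries were compared with Tbx3, the mesenchymal factor with the largest change in the main fit. The nearest genes were Nuak1, a kinase gene, Prx, periaxin, and Casz1, a zinc finger factor gene. Their root mean square differences from Tbx3 were 0.10, 0.13 and 0.15 log2 units, after each gene was centred on its mean, against a median of 0.68 over 15520 genes. Nearest to Sox9 were the cell division genes Cdkn3, Ccnb1 and Cdk1 (0.22, 0.24 and 0.27, median 1.94). For Sox9 the measure rests mostly on the size of the group difference, since Cdkn3 had a log2 fold change of 3.81, Ccnb1 3.78 and Cdk1 3.86. This held less for Tbx3, where Casz1 (-1.03) ranked 3 but Tbx4 (-1.19) ranked 512 and Foxf1 (-1.16) ranked 863. All 6 proliferation markers rose, beside 35.1% of all genes tested called higher. Their sums were 42.0 to 54.2 CPM in controls and 526 to 830 CPM with IL-33, and their part in the Sox9 result was not tested.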

How the data were processed

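Per the labels' protocols, polyA RNA from 10 lungs went through a strand-keeping library kit. The deposited files give raw read counts per Ensembl gene, with no normalization. FastQC 0.11.6, MultiQC 1.6, STAR 2.5.4b, HTSeq 0.9.1 and the GRCm38 genome are named in the submitters' processing notes; no source used here states the annotation release, the strand setting or the read length. Of 53465 genes, 53274 matched a symbol. Rows naming no gene (10.4% to 13.7% of records in no gene, 0.862% to 0.945% ambiguous, 15.0% to 22.8% not unique) were left out.

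The main comparison used edgeR 4.0.16 under R 4.3.3 on both groups together: filterByExpr left 15695 genes, TMM factors ran from 0.969 to 1.03, the model held group alone, and quasi-likelihood p-values were adjusted by Benjamini-Hochberg. The function was tested on simulated counts. CPM use TMM-scaled library sizes, and 3 reads stand for 0.218 to 0.384 CPM. The SE comes from log2(CPM + 0.1). The labels name no batch, and p-values measure the spread between these libraries. Exonic length and GC content come from GENCODE M21, known for 15680 tested genes.

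Members and gene lists were chosen with earlier results of these data known. Named are all members and, of each list of related genes, 2 called genes (the largest changes, mean at least 1 CPM) plus the gene highest per length, with the 3 profiles nearest to the most changed factor of each class; other list genes printed were chosen after their values were seen. Of the neighbouring genes, 4 antisense symbols matched no identifier. Alternatives were other scalings and filters, DESeq2 1.42.0, limma-voom (limma 3.58.1), a replicate block, the length and GC correction, a 1.5-fold test, an adjusted p of 0.01, other pseudocounts and leaving out each library. Leaving out Sox9 from the class contrast was added after the data were seen.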

Additional observations from a re-analysis of the deposited data

Results flagged for a closer look

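Within groups of 5 libraries, 3 values stood apart from the rest by more than Dixon's limit of 0.71 for the gap over the range, out of 30 groups checked; chance alone flags about 5% of groups. Tbx2 in IL-33 library 2 was at 183 CPM, below 254 to 281 CPM in the other 4. Tbx3 in control 1 was at 211 CPM, below 322 to 367 CPM in the other controls. Foxa1 in control 2 was at 75.1 CPM, above 47.2 to 54.3 CPM in the other controls. The directions and calls of Tbx2, Tbx3 and Foxa1 were the same without these libraries.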

How the results depend on the processing

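Over 20 alternatives each, the 10 factors gave 197 values of 200 on the same side of the threshold and all in the same direction. The exceptions were Nkx2-1 against a 1.5-fold change, and Foxa2, called after the length and GC correction and without IL-33 library 4. Leaving out 1 library gave 9 to 10 members called, 1 higher and 8 to 9 lower, and 10517 to 11089 genes in all, 5338 to 5531 higher and 5179 to 5558 lower. A test against a 1.5-fold change left 4741 genes (2813 higher, 1928 lower), and by list 4 other mesenchymal factors, 9 other epithelial factors, 10 budding signals, 8 targets of NKX2-1, FOXA or GATA6, 5 FOXF1 targets and 5 paralogs. After the length and GC correction 15 other mesenchymal factors were called. Leaving out 1 library, called genes numbered 9 to 10 (other mesenchymal), 18 to 20 (other epithelial), 17 to 20 (signals), 15 to 16 (targets), 10 to 11 (FOXF1 targets), 3 (neighbours) and 8 to 10 (paralogs).

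Same-numbered libraries did not deviate together in every pair (correlations -0.07 to 0.23), and 1 of 5 controls correlated best with its own number. The labels give such libraries only a shared number, and whether they share a batch was not tested. With the replicate block the pair changes were 0.37, -0.49, -0.69 and -0.86 for Tbx2 over Tbx3, Tbx4 over Tbx5, Foxa1 over Foxa2 and Foxf1 over Nkx2-1, each with an adjusted p of 0.0625, the smallest that 5 sign flips allow; the block kept all 9 calls among members. Without single libraries these ratios ranged over 0.24 to 0.48, -0.59 to -0.38, -0.75 to -0.62 and -0.92 to -0.81. Tbx2 over Tbx3 passed without control 1 (0.48). The class contrast of -1.31 was -0.51 without Tbx5 and Sox9, the least abundant of each class, and -0.43 without Sox9. Of single genes, Cldn5 ranged from -0.12 to 0.039 over single left-out libraries, turning direction without control 1 or IL-33 library 2 or 4, and was called lower after the length and GC correction (-0.51), Sox18 from -0.22 to 0.034, turning without control 2, and Krt18 after the length and GC correction (-0.22). At this depth Sox9 in controls rests on 16 to 30 reads per library.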

Other observations

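Relatives of the 10 factors that serve other cell types moved in both directions. Of 22 paralogs 15 were tested, 2 rose and 6 fell, with a median log2 fold change of -0.37. Over all genes tested 69.9% were called, 34.8% lower and 35.1% higher. Gata3, a factor of type 2 lymphocytes and also of some epithelia, went from 15.6 ± 3.50 to 193 ± 39.8 CPM, and Gata1, of eosinophils and mast cells, from 0.93 ± 0.37 to 4.92 ± 0.99 CPM. Within the GATA family Gata2, of endothelium and mast cells, fell by 0.97 and Gata5 by 0.64. Tbx20, a heart factor, fell by 1.38, and Tbx21, of type 1 lymphocytes, had -0.15 and did not pass. Sox18, an endothelial factor and the most abundant of the list per length, had -0.09 and did not pass; it was called at -0.52 after the length and GC correction. Sox17 and Sox7, its relatives, fell by 0.50 and 1.18.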
